A study of Mus musculus with 9 samples.

Results

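The late genes are protein-coding genes whose level at day 7 of osteoblast differentiation stood at least 1.5 times above day 4, after staying between 0.67 and 1.5 times the day 0 level at day 4. They also had to reach a mean of 2 RPKM (reads on a gene, divided by the length of its model and by the library's total) at day 7. The genes were thus chosen by the mean RPKM of all 3 stages, and their levels are given below as a description without a test. Of 21613 protein-coding genes, 9453 reached 2 RPKM at day 7, 295 of these (3.12%) met the rise over day 4, and 90 met all the conditions. The condition on day 4 left out 147 genes that had already gone above 1.5 times day 0 and 58 that had dropped below 0.67 times day 0.

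The libraries came from calvarial cells, the bone-forming progenitors of the skull vault, taken from wild-type C57BL/6 pups, at postnatal day 2 to 3 by the labels. Cells of day 0 were confluent and undifferentiated, and those of day 4 and day 7 had been kept for that time in mineralization medium, whose additions were β-glycerol phosphate and ascorbic acid. There were 3 libraries per stage. Values of single libraries are given below in the order of replicates 1, 2 and 3, and ± is the SD over the 3 libraries of a stage (n = 3). All were primary cultures, which hold a mixture of cells, and the number of pups behind each library is not given in the sources used here. Cells that had mineralized were released with collagenase I before trypsin and the others with trypsin alone. For cells to be reseeded, the study's methods name collagenase I for both day 4 and day 7, for longer at day 7. Stage and release cannot be told apart.

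The libraries had between 7741204 and 14013219 reads on genes at day 0, 10675858 and 15622755 at day 7, and 32820610 and 37306090 at day 4. Day 4 lies in a table of its own, so levels at day 4 are set beside the others as a description, without a test. A single noncoding RNA, Gm42418, took 11.97% of the reads of day 0 replicate 3 and 8.12% of those of day 7 replicate 2, and the coding gene Plekhh2 took 7.95% of those of day 7 replicate 3. In day 0 replicate 3 the median gene with 2 RPKM at day 7 stood at 0.845 of its day 0 mean. Without day 0 replicate 3 the same conditions chose 82 genes, 76 of them among the 90, and with median-of-ratios factors in place of library totals they chose 139, 88 of them among the 90. The cells carried the osteoblast program: of the 15 osteoblast markers that are not late genes, 14 rose from day 0 to day 7 by limma at an adjusted p threshold of 0.05 (median log2 difference 1.87), whereas 12.6% of the 12710 genes tested rose and 18.6% fell (median -0.11). With median-of-ratios factors the median of all genes was -0.01 and 2827 rose and 2629 fell, against 1602 and 2369, and without day 0 replicate 3 the median was -0.23 with 1603 and 4694. Values of lists below are thus to be read against the median of all genes.

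Osteoblasts first multiply, then lay down a matrix of type I collagen, and then mineralize it, and some become buried as osteocytes. Each step has its own regulators, among them the Wnt, BMP and FGF pathways, whose receptors and secreted antagonists tune how far a cell goes. Genes that stay near their starting level while matrix is made and come up only at the mineralizing stage are thus of interest apart from the classical markers, most of which are up by day 4. In these bulk samples a larger share of cells with a transcript and more of it per cell cannot be told apart.

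The plot of both ratios shows the late genes as a narrow window above a broad cloud. Their median ratio was 1.62 from day 4 to day 7 and 0.914 from day 0 to day 4, against 0.969 and 0.956 for all genes with 2 RPKM at day 7. Day 7 was at least 2 times day 4 in 20 late genes and at least 3 times in 5, Slc26a7, Cdo1, Prex1, Sncg and Dbp.

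**Figure D1:**
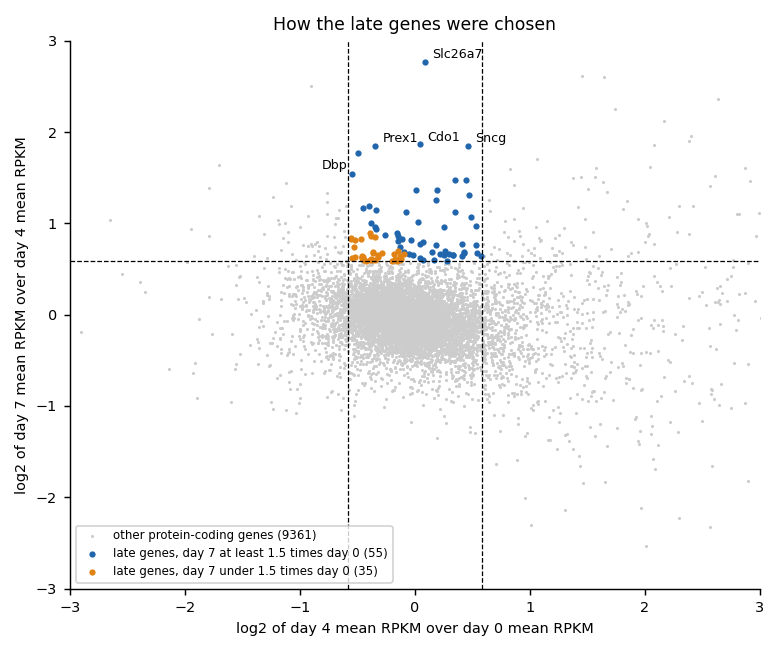
Log2 ratio of mean RPKM from day 0 to day 4 (horizontal) and from day 4 to day 7 (vertical) for protein-coding genes with at least 2 RPKM at day 7. Dashed lines are the thresholds; blue points are the 55 late genes that also stood at least 1.5 times above day 0, orange points are the other 35, and 111 genes lie outside the axes.

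Against day 0 the late genes fell into different kinds. In 55 of the 90 the day 7 mean was at least 1.5 times the day 0 mean (9.85% of all genes with 2 RPKM at day 7 were), and in the other 35 it was not. In 68 each of the day 7 libraries was above all those of day 0 and day 4 (6.44% of all such genes), and in 85 each was above all those of day 4 (15.1%). These shares follow in part from how the genes were chosen. The day 4 mean was below the day 0 mean in 55 genes. The list thus holds genes below their day 0 level at day 4 beside genes above it. Since the choice used both ratios whose product is the ratio of day 7 to day 0, nothing further is read from this division.

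**Figure D2:**
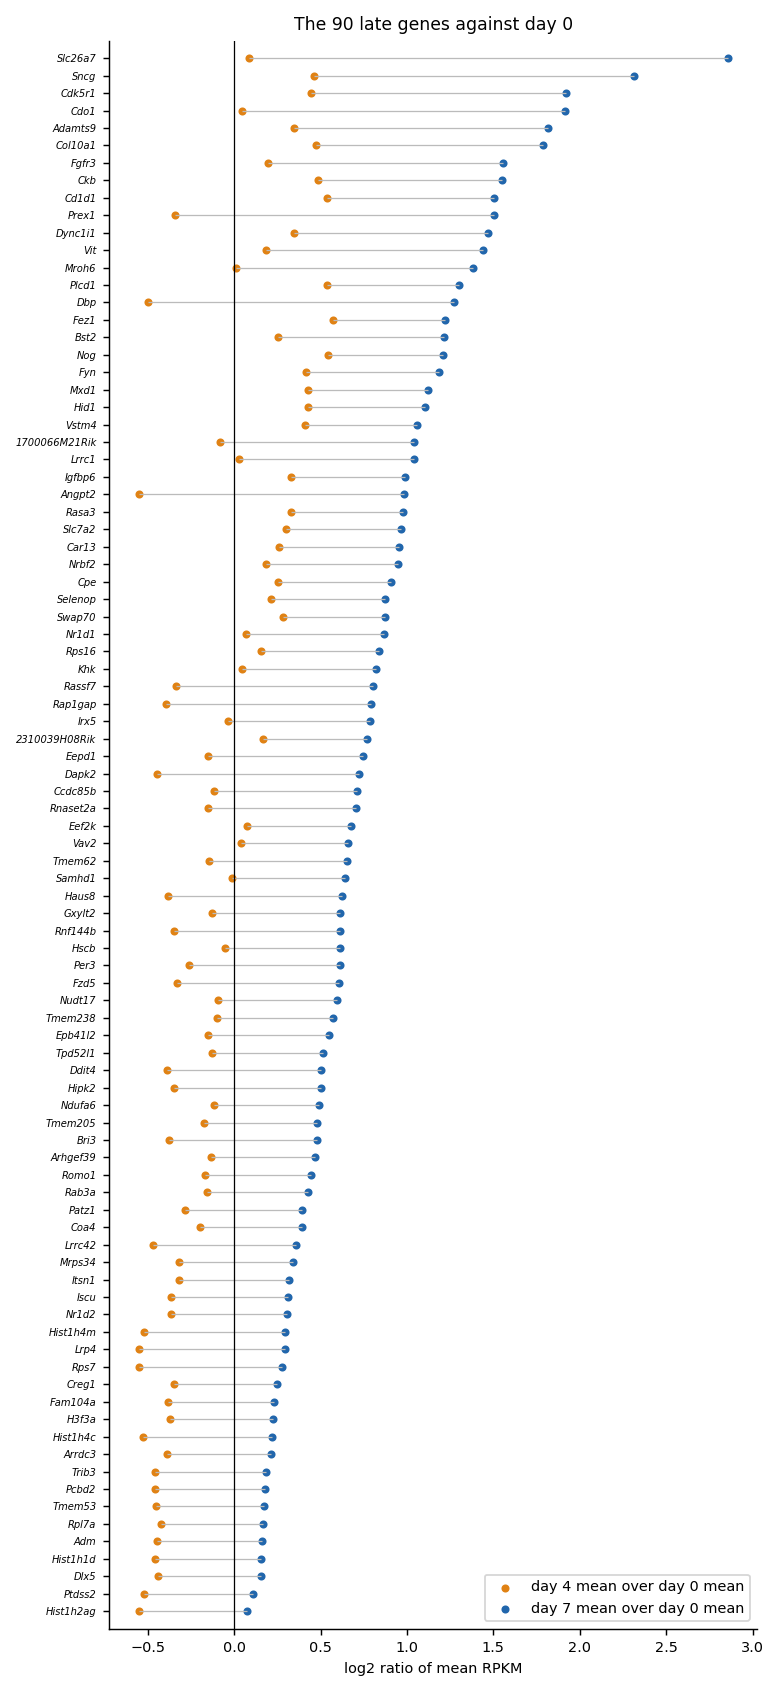
Log2 ratio of the day 4 mean (orange) and of the day 7 mean (blue) to the day 0 mean for each of the 90 late genes, ordered by day 7. Slc26a7 is at the top at 7.24 times day 0 and Hist1h2ag at the bottom at 1.051 times, and most orange points of the lower part lie left of the line at 0.

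Slc26a7 and Car13 belong to anion and acid handling. Slc26a7 (chr4:14502430-14621805 of GRCm38, minus strand) encodes an exchanger of chloride and other anions of the SLC26 family. Slc26a7 was at 0.486, 0.323 and 0.3804 RPKM in the day 0 libraries, at 0.521, 0.375 and 0.368 in those of day 4, and at 2.84, 2.93 and 2.84 in those of day 7. Every day 7 library lay far above all others, and the day 7 mean of 2.87 ± 0.0516 RPKM (SD, n = 3) was 6.81 times day 4. Car13 encodes a cytosolic carbonic anhydrase, which interconverts carbon dioxide and bicarbonate. The levels of Car13 were 3.97, 3.49 and 2.02 RPKM at day 0, 4.11, 3.6005 and 3.65 at day 4, and then 5.28, 7.09 and 6.01 at day 7. Its 3 day 7 libraries also cleared all the others, at 1.62 times day 4.

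Among enzymes, Cdo1 and Ckb stood out. Cdo1 encodes cysteine dioxygenase, which commits cysteine to oxidation towards taurine and sulfate. Cdo1 was at 11.6, 13.4 and 8.27 RPKM in the day 0 libraries, at 13.7, 7.72 and 12.995 in those of day 4, and at 46.9, 43.3 and 35.3 in those of day 7. The day 0 and day 4 libraries overlapped and the day 7 libraries did not reach down to them, with a ratio of 3.65 to day 4. Ckb encodes the brain-type creatine kinase, which buffers ATP with phosphocreatine. The levels of Ckb were 35.1, 24.2 and 21.7 RPKM at day 0, 40.95, 33.7 and 38.8 at day 4, and then 80.5, 75.3 and 81.5 at day 7. Here day 4 was already 1.401 times day 0, close to the upper limit of the choice, and day 7 was 2.93 times day 0. Khk, which phosphorylates fructose, had means of 2.12 ± 0.198, 2.19 ± 0.415 and 3.75 ± 0.566 RPKM at day 0, day 4 and day 7. Slc7a2, a transporter of cationic amino acids such as arginine, had means of 4.18 ± 1.098, 5.15 ± 1.15 and 8.17 ± 0.849 RPKM at day 0, day 4 and day 7. In both, the day 7 libraries lay above all others.

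The secreted and membrane regulators of the Wnt, BMP, FGF and IGF pathways held 5 late genes. These were 2 of 32 Wnt genes, 1 of 35 BMP and TGF-β genes and 2 of 18 FGF and IGF genes with 2 RPKM at day 7. Of all such genes, 0.952% were late genes, and the lists were chosen with earlier results of these data known. Fgfr3, an FGF receptor that restrains growth of endochondral bone (chr5:33721674-33737068, plus strand), was the one with the largest ratio to day 0. Fgfr3 was at 5.81, 4.27 and 4.26 RPKM in the day 0 libraries, at 5.55, 4.95 and 5.93 in those of day 4, and at 18.7, 11.7 and 11.8 in those of day 7. All day 7 libraries were above all others, with replicate 1 well above the other two. Fgfr1 and Fgfr2, the more abundant receptors of the family, had means of 41.8 and 72.8 RPKM at day 0, then 48.1 and 62.4 at day 4, and 41.9 and 70.7 at day 7. Neither passed the test between day 0 and day 7 (adjusted p of limma 0.983 and 0.882). Igfbp6 encodes a binding protein that prefers IGF-II. The levels of Igfbp6 were 18.2, 23.4 and 13.5 RPKM at day 0, 19.8, 27.8 and 21.6 at day 4, and then 34.2, 40.8 and 34.1 at day 7. Of the 19 other FGF and IGF genes tested, 5 rose and 3 fell from day 0 to day 7, with a median log2 difference of 0.01 that was 0.11 with median-of-ratios factors and -0.02 without day 0 replicate 3.

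Nog encodes noggin, a secreted antagonist of BMPs (chr11:89300638-89302332, minus strand, a single exon). Nog was at 5.301, 4.78 and 2.21 RPKM in the day 0 libraries, at 5.12, 7.001 and 5.78 in those of day 4, and at 11.3, 8.78 and 8.38 in those of day 7. The mean was higher at each stage, though the libraries of day 0 and day 4 overlapped, and at 1.46 times day 0 the day 4 mean lay just inside the upper limit. Nog left the set in 4 of the 9 cases in which 1 library was left out, and it stayed in only 1 of 3 repeats with other scalings or medians. Among the 40 other BMP and TGF-β genes tested, 11 rose and 12 fell, with a median of -0.08 that turned to 0.02 with median-of-ratios factors.

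Fzd5 and Lrp4 are receptors of the Wnt pathway, the latter the one that presents sclerostin, the osteocyte's Wnt antagonist. The levels of Fzd5 were 21.4, 20.8 and 18.8 RPKM at day 0, 15.4, 17.1 and 15.9 at day 4, and then 36.2, 27.8 and 28.8 at day 7. Its day 4 libraries were the lowest and its day 7 libraries cleared both other stages. Lrp4 was at 9.97, 12.5 and 10.3 RPKM in the day 0 libraries, at 7.33, 7.56 and 7.51 in those of day 4, and at 15.1, 12.8 and 12.3 in those of day 7. For Lrp4 the day 4 libraries were again the lowest, but day 0 replicate 2 overlapped the day 7 libraries, so the day 7 level was a return to slightly above day 0 (1.23 times). Of the 41 other Wnt genes tested, 17 rose and 12 fell, with a median of 0.28. The secreted antagonist Sost, which binds Lrp4, had means of 0.0343 RPKM at day 0, of 0.0886 at day 4 and of 4.95 at day 7, and Sost was no late gene since day 4 was already 2.58 times day 0 at those traces.

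Transcription factors of the homeodomain kind were Irx5 and Dlx5. Irx5 was also the 1 late gene among 17 osteocyte genes with 2 RPKM at day 7, where 0.952% of all such genes were late genes. Irx5 was at 15.8, 18.1 and 16.1 RPKM in the day 0 libraries, at 15.4, 18.2 and 15.3 in those of day 4, and at 32.3, 29.8 and 24.4 in those of day 7. Its day 0 and day 4 libraries had like levels and all 3 of day 7 were above them. Dlx5, an activator of bone genes and the 1 late gene among 16 osteoblast markers with 2 RPKM at day 7, had low levels throughout. The levels of Dlx5 were 3.51, 3.23 and 3.36 RPKM at day 0, 2.48, 2.54 and 2.42 at day 4, and then 4.73, 2.76 and 3.73 at day 7. The day 7 range covered all the day 0 values, so only the gap to day 4 was clear of overlap. Of the 17 other osteocyte genes tested, 13 rose and 2 fell (median 1.52). Mxd1, an antagonist of MYC, had means of 2.297 ± 0.215, 3.09 ± 0.246 and 4.996 ± 0.161 RPKM at day 0, day 4 and day 7, with all day 7 libraries above the rest.

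In the matrix, Col10a1, the collagen of hypertrophic cartilage (chr10:34389981-34397085, plus strand), was the 1 late gene among 11 chondrocyte markers with 2 RPKM at day 7. Of all genes with 2 RPKM at day 7, 0.952% were late genes. Col10a1 was at 0.797, 0.694 and 0.784 RPKM in the day 0 libraries, at 1.401, 0.804 and 0.957 in those of day 4, and at 3.74, 1.91 and 2.19 in those of day 7. Replicate 1 was the highest library at each stage and at day 7 well above replicates 2 and 3, yet all day 7 libraries were above day 4. The other chondrocyte markers did not share one direction: 3 of 12 tested rose and 5 fell (median -0.58). The 3 that rose were Col11a2, Comp and Acan, by log2 differences of 3.46, 1.60 and 1.06. Comp, a cartilage matrix protein, had means of 8.09, 4.32 and 24.4 RPKM over the 3 stages, and it was no late gene since day 4 was 0.534 times day 0. Col2a1, the collagen of hyaline cartilage, fell by 2.16 on the log2 scale (adjusted p of limma 2.53e-09, replicates not paired). Its means were 239 ± 157 and 53.5 ± 34.3 RPKM at day 0 and day 7. Its libraries were at 420, 140 and 158 RPKM at day 0, 145, 33.8 and 64.3 at day 4, and 92.8, 29.2 and 38.5 at day 7. Replicate 1 was also the highest at each stage for Col9a1, Col9a2, Col9a3, Cnmd and Comp, but not for Acan or Col11a2. The part of cartilage cells in the level of Col10a1 was not tested. Adamts9, a secreted protease that cleaves proteoglycans such as versican, had means of 0.701 ± 0.134, 0.893 ± 0.0803 and 2.47 ± 0.184 RPKM at day 0, day 4 and day 7. Vit, a matrix protein that takes its name from the vitreous body, had means of 3.31 ± 0.279, 3.77 ± 1.35 and 8.98 ± 1.79 RPKM at day 0, day 4 and day 7. In both all day 7 libraries lay above the others. Of the 33 other matrix proteases and inhibitors tested, 14 rose and 8 fell (median 0.20).

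**Figure D3:**
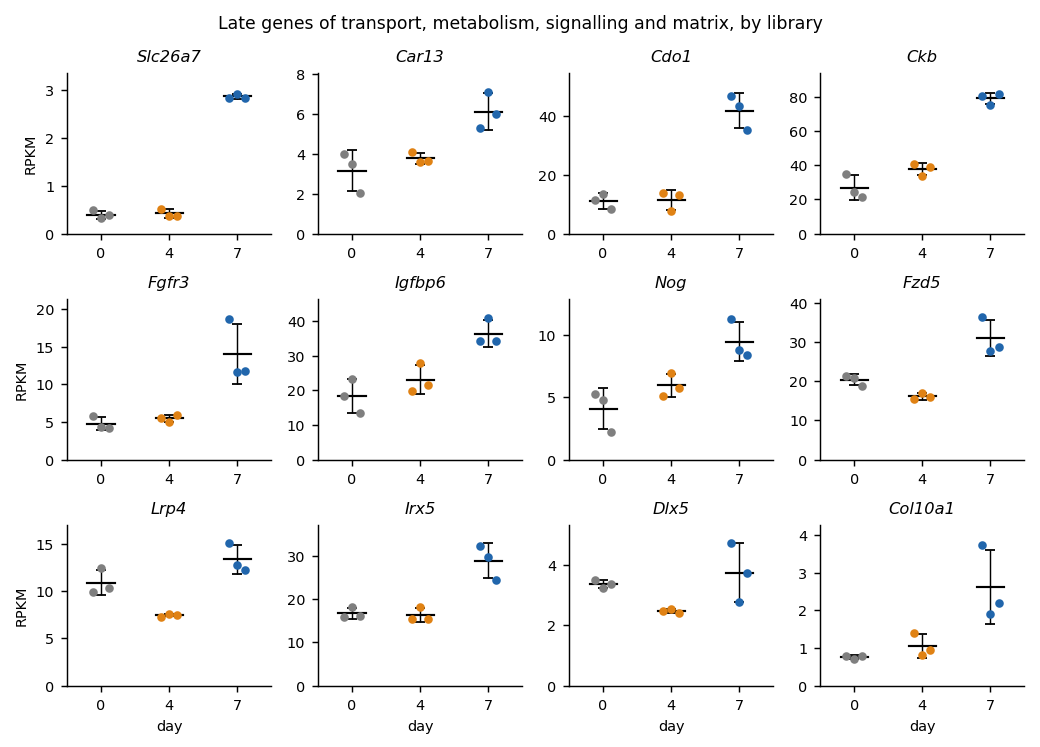
RPKM in each library (points) with the mean and SD of the stage (line and bar, n = 3) for 12 late genes of transport, metabolism, signalling and matrix. Each panel starts at 0, and day 7 libraries lie above all day 4 libraries in every panel, while those of Lrp4 and Dlx5 overlap day 0.

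Clock genes were the list with the most late genes, 4 of the 16 clock genes with 2 RPKM at day 7. Of all genes with 2 RPKM at day 7, 0.952% were late genes. The lists were chosen with earlier results of these data known, so this contrast is given as a description. The clock is a loop in which the proteins of Arntl and Clock bind E-boxes (CACGTG) and drive their own repressors. Among their targets are Nr1d1 and Nr1d2, which encode the REV-ERB receptors that repress Arntl, and Dbp, whose protein activates genes through D-boxes (TTATGNAA) such as those of the Per family. Transcripts of this arm rise and fall with the time of day, and a culture's phase is reset by fresh medium. The hour of collection of each stage is not given in the sources used here, and its part in these levels was not tested.

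Dbp (chr7:45705088-45710203, plus strand) had the largest ratio to day 4 of the 4. Dbp was at 2.16, 3.01 and 2.41 RPKM in the day 0 libraries, at 1.59, 1.96 and 1.81 in those of day 4, and at 6.96, 6.52 and 4.82 in those of day 7. Its levels dipped at day 4 and all day 7 libraries were above day 0. The levels of Nr1d1 were 1.83, 2.28 and 1.97 RPKM at day 0, 2.14, 1.802 and 2.44 at day 4, and then 3.59, 4.199 and 3.31 at day 7. Nr1d1 was level between day 0 and day 4. Nr1d2 was at 8.41, 9.44 and 7.28 RPKM in the day 0 libraries, at 6.59, 5.898 and 7.02 in those of day 4, and at 10.2, 10.8 and 10.1 in those of day 7. The levels of Per3 were 2.37, 2.76 and 2.39 RPKM at day 0, 2.08, 2.07 and 2.14 at day 4, and then 3.98, 3.86 and 3.64 at day 7. In Nr1d2 and Per3 the day 4 libraries were below those of day 0, and in all 4 genes the day 7 libraries cleared both other stages. Nr1d1, Nr1d2 and Per3 stayed in the set without any one library and under each other scaling, and Dbp in 8 of 9 and 3 of 3.

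The rest of the loop did not share one course. Tef, a relative of Dbp, dipped to 0.62 times day 0 at day 4 and stood at 1.44 times day 4 at day 7, just outside on both counts. Per2 was at 1.052 and 1.448 times. Arntl went the other way, with means of 8.30 RPKM at day 0, of 13.3 at day 4 and of 9.06 at day 7. Clock fell from 10.3 to 6.83 RPKM between day 0 and day 7 (log2 difference -0.58, adjusted p of limma 0.00374). Of the 13 clock genes tested that are not late genes, 7 rose and 1 fell between day 0 and day 7 (median 0.58).

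**Figure D4:**
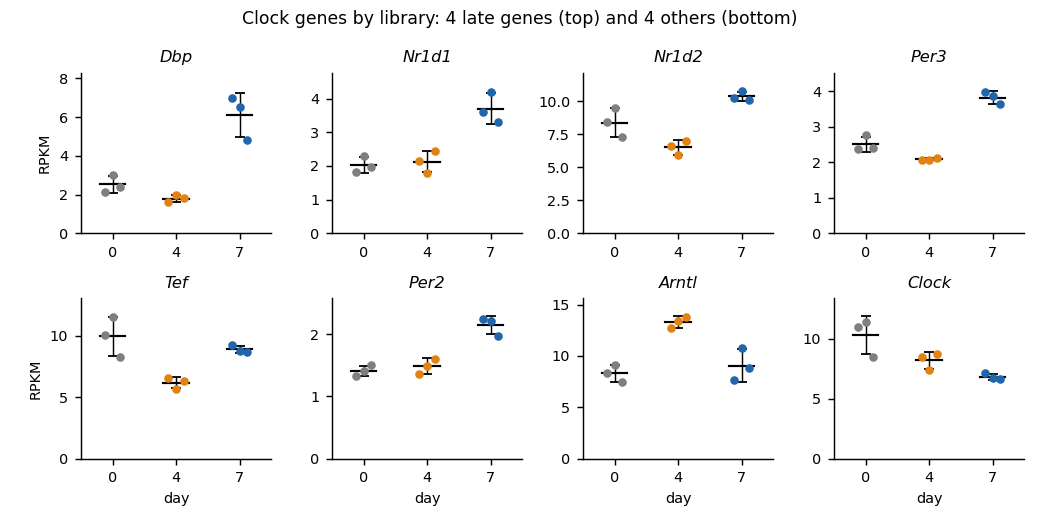
RPKM in each library (points) with the mean and SD of the stage (line and bar, n = 3) for the 4 late clock genes in the upper row and 4 other clock genes in the lower row. The upper genes have their day 7 libraries on top, Arntl is highest at day 4, and Clock is lower at each stage by its mean.

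Since the proteins of this pathway act through short sites near the start of genes, the promoter of the one that held a searched site is shown. The stretch from 250 bases before to 50 bases after the start of Per3 (RefSeq, GRCm38.p6, chr4:151044616-151044915, minus strand) held 2 D-boxes, both TTATGTAA, starting 205 and 158 bases before the start. They are in capitals.
Per3: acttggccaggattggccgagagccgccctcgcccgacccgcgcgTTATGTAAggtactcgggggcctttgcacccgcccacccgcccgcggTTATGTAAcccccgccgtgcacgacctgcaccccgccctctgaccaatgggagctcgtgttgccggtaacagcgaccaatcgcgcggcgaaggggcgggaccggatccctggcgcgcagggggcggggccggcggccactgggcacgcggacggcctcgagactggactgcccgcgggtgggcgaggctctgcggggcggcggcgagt
No E-box matched in it, and neither E-box nor D-box matched in the same windows of Dbp, Nr1d1 and Nr1d2. Windows were found for 72 of the 90 late genes and for 7645 of the genes with 2 RPKM at day 7. On either strand, the D-box matched in 1.39% of the former and 1.79% of the latter and the E-box in 8.33% and 10.95%.

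Among the other motifs, the TATA box (TATAAA) matched in 11.1% of late gene windows (95% Wilson interval 5.74 to 20.4) and in 6.88% of all windows. The AP-1 site (TGANTCA) matched in 0 of 72 against 4.13%, with an upper bound of 5.07%. GC boxes (GGGCGG) matched in 68.1% and 69.2%, and the core of the hypoxia response element (ACGTG), which the E-box contains, in 20.8% and 27.4%. Windows that lack a match say only that these letters are not in this stretch.

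Among 20 interferon-stimulated genes with 2 RPKM at day 7, where 0.952% of all such genes were late genes, the 1 late gene was Bst2. It encodes tetherin, a membrane protein that holds budding enveloped virus at the cell surface. Bst2 was at 21.2, 39.2 and 19.6 RPKM in the day 0 libraries, at 26.6, 36.5 and 32.3 in those of day 4, and at 58.2, 68.01 and 59.03 in those of day 7. The day 7 libraries were all well above the rest, with a ratio of 1.94 to day 4. Its promoter is shown because it held the sites of that pathway. In the window of Bst2 (RefSeq, GRCm38.p6, chr8:71537423-71537722, minus strand) the interferon response element matched 2 times on the other strand, from 130 and from 124 bases before the start, and the STAT site (TTCNNNGAA) 1 time, from 136 bases before it. The matches overlap and form the run in capitals.
Bst2: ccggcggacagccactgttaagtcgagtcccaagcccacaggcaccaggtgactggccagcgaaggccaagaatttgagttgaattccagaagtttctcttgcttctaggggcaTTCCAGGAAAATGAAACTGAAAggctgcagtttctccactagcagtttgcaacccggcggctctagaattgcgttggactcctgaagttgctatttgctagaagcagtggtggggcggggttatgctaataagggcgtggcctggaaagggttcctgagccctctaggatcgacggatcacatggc
The interferon element matched in 4 late gene windows (5.56%, 95% Wilson interval 2.18 to 13.4) against 2.72% of all windows, a share within that interval. The matches were in the windows of Bst2 and of Rps7, Romo1 and Selenop, of which only Bst2 is in the interferon list. Of the 31 other interferon-stimulated genes tested, 14 rose and 3 fell from day 0 to day 7 (median 0.50). Most of those that rose had a higher mean by day 4: Isg15 had means of 4.58, 7.24 and 11.5 RPKM and Ifit1 1.31, 2.75 and 4.93 over the 3 stages. For Isg15, however, day 0 replicate 2 at 8.74 RPKM was above all day 4 libraries (6.28, 7.30 and 8.14). Replicate 2 was also the highest day 0 library for Bst2, Ifit1 and Usp18.

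Samhd1, which degrades the nucleotides that viruses need, and Cd1d1, which presents lipids to T cells, were late genes outside that list. The levels of Samhd1 were 5.15, 5.098 and 4.35 RPKM at day 0, 4.57, 4.84 and 5.05 at day 4, and then 7.92, 7.28 and 7.61 at day 7. Cd1d1 was at 1.39, 1.399 and 1.21 RPKM in the day 0 libraries, at 1.896, 1.88 and 2.02 in those of day 4, and at 3.25, 3.35 and 4.73 in those of day 7. Both had their day 7 libraries above all others. These genes are also used by macrophages, whose markers moved in these cultures: 18 of the 19 tested rose, and the summed level of all 22 markers ranged from 60.5 to 100.1 RPKM at day 0, 119 to 138 at day 4 and 126 to 166 at day 7. None of the 22 was at 0 in all libraries of a stage. Ptprc, the pan-leukocyte marker, had means of 0.0366, 0.105 and 0.129 RPKM. Most of the gain of Ptprc was present at day 4, whereas more of the gain of C1qa came after it, with means of 3.63, 6.96 and 11.9 RPKM. Of the macrophage markers, 10 had 2 RPKM at day 7 and none was a late gene. That is too few genes to read anything from at a share of 0.952% of all such genes. The part of such cells in the levels of Bst2, Samhd1 and Cd1d1 was not tested.

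Of the 14 lists of cell type markers, 12 held no late gene, the exceptions being Dlx5 and Col10a1. Each of those 12 had between 0 and 15 genes with 2 RPKM at day 7, and 0.952% of all such genes were late genes. That is too few genes per list to read anything from. All lists together held 17 of the 90, and 73 were in no list. The 17 were 2.83% of the 601 listed genes with 2 RPKM at day 7, against 0.952% of all such genes. The lists were chosen with earlier results of these data known, so nothing is read from this difference. The list of immediate early and dissociation genes, which enzymatic release of cells is known to move, held no late gene among 27 with 2 RPKM at day 7, too few genes to read anything from at a share of 0.952% of all such genes. Of its 31 genes tested 11 rose and 2 fell between day 0 and day 7 (median 0.23), and the part of release in the levels of the late genes was not tested.

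Ddit4, Trib3, Adm and Arrdc3 had lower means at day 4 than at day 0. Ddit4 (REDD1) restrains mTORC1, and Trib3 is a pseudokinase of the ATF4 stress response. Ddit4 was at 58.6, 71.05 and 49.96 RPKM in the day 0 libraries, at 42.9, 44.8 and 49.6 in those of day 4, and at 97.8, 74.7 and 82.4 in those of day 7. The levels of Trib3 were 61.9, 82.1 and 55.2 RPKM at day 0, 41.1, 53.5 and 50.4 at day 4, and then 80.9, 69.1 and 76.2 at day 7. Day 7 cleared day 0 for Ddit4 but overlapped it for Trib3. Adm encodes the vasodilator peptide adrenomedullin and stands with Ddit4 in the list of hypoxia genes. Adm was at 21.1, 16.4 and 13.2 RPKM in the day 0 libraries, at 10.9, 14.4 and 11.9 in those of day 4, and at 20.03, 22.8 and 13.7 in those of day 7. Day 7 replicate 3 overlapped the day 4 libraries, and Adm stayed in the set in only 4 of the 9 cases with 1 library left out. The other hypoxia genes took another course, since all 18 tested rose between day 0 and day 7 (median 1.99), most with a step by day 4 such as Vegfa with 29.3, 92.8 and 107 RPKM. Eef2k, the kinase that slows translation elongation, had means of 13.8 ± 1.95, 14.5 ± 0.817 and 22.01 ± 0.755 RPKM at day 0, day 4 and day 7. Arrdc3, an arrestin-domain protein taken from the antioxidant list, had means of 8.33 ± 2.68, 6.37 ± 0.2598 and 9.67 ± 1.05 RPKM at day 0, day 4 and day 7, and its day 7 range overlapped day 0. Of the 23 other genes of that list tested, 2 rose and 11 fell (median -0.48).

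A further group, gathered after the values were seen, regulates small GTPases. Prex1, Vav2, Swap70, Itsn1 and Arhgef39 load GTP onto such switches, and Rasa3 and Rap1gap speed its hydrolysis on Ras or Rap. Prex1 (chr2:166566342-166713832, minus strand) had the largest ratio to day 4 among them. Prex1 was at 1.89, 3.13 and 2.98 RPKM in the day 0 libraries, at 2.46, 1.74 and 2.096 in those of day 4, and at 7.66, 7.11 and 7.901 in those of day 7. Its day 7 libraries were close together and far above the rest. The levels of Swap70 were 27.2, 23.9 and 18.1 RPKM at day 0, 22.99, 35.3 and 25.9 at day 4, and then 44.02, 43.5 and 39.04 at day 7. Rasa3 was at 19.9, 17.3 and 17.4 RPKM in the day 0 libraries, at 25.6, 20.2 and 22.8 in those of day 4, and at 37.5, 32.002 and 38.2 in those of day 7. For Swap70 the ratio to day 4 of 1.504 was close to the limit, and it stayed in the set in 5 of the 9 cases with 1 library left out. Rap1gap had means of 1.31 ± 0.06599, 0.998 ± 0.183 and 2.27 ± 0.145 RPKM at day 0, day 4 and day 7. Vav2 had means of 3.65 ± 0.299, 3.75 ± 0.264 and 5.75 ± 0.986 RPKM at day 0, day 4 and day 7. In Itsn1, with means of 11.04 ± 1.31, 8.87 ± 0.347 and 13.8 ± 2.58 RPKM at day 0, day 4 and day 7, day 7 replicate 2 fell within the day 0 range. Fyn, a kinase of the Src family that signals upstream of such factors, had means of 20.5 ± 2.27, 27.3 ± 1.47 and 46.7 ± 3.74 RPKM at day 0, day 4 and day 7, and Plcd1, a phospholipase C, had means of 24.4 ± 4.17, 35.3 ± 0.688 and 59.95 ± 5.28 RPKM at day 0, day 4 and day 7. Both had all day 7 libraries above the others.

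Some late genes are better known from neurons and secretory cells. Cpe trims peptide hormones in secretory granules and was among the 10 highest at day 7. Cpe was at 65.1, 39.7 and 33.3 RPKM in the day 0 libraries, at 54.3, 58.3 and 51.9 in those of day 4, and at 84.7, 93.8 and 80.5 in those of day 7. Sncg encodes γ-synuclein. The levels of Sncg were 0.502, 0.392 and 0.606 RPKM at day 0, 0.643, 1.04 and 0.391 at day 4, and then 1.55, 3.96 and 1.95 at day 7. Day 7 replicate 2 was well above replicates 1 and 3, and with as few as 18 reads in a day 7 library Sncg had the fewest of the 90. Cdk5r1 encodes p35, the activator of CDK5. Cdk5r1 was at 0.668, 0.522 and 0.651 RPKM in the day 0 libraries, at 0.922, 0.721 and 0.866 in those of day 4, and at 2.22, 2.002 and 2.77 in those of day 7. Fez1, a kinesin adaptor, and Rab3a, a GTPase of regulated exocytosis, lay close to the limits. The levels of Fez1 were 1.82, 1.74 and 1.47 RPKM at day 0, 1.897, 3.11 and 2.48 at day 4, and then 2.34, 5.298 and 4.08 at day 7. Rab3a was at 2.98, 3.57 and 2.67 RPKM in the day 0 libraries, at 2.23, 3.15 and 2.88 in those of day 4, and at 3.75, 4.54 and 4.11 in those of day 7. Fez1 overlapped between day 4 and day 7, and Rab3a did not. Of the markers of neural and Schwann cells 3 of the 6 tested fell (median -0.49). Only 2 markers of that list had 2 RPKM at day 7, and none was a late gene. That is too few genes to read anything from at a share of 0.952% of all such genes. Angpt2, a ligand of the endothelial receptor TIE2, had means of 1.15 ± 0.275, 0.787 ± 0.0419 and 2.28 ± 0.262 RPKM at day 0, day 4 and day 7, a dip and a rise in which all day 7 libraries cleared the rest. Of the 12 endothelial markers, Tie1 and Emcn were at 0 in every library, 2 of the 3 tested rose and 1 fell from day 0 to day 7 (median 1.13), and the summed level of all 12 ranged from 13.6 to 18.3 RPKM at day 0, from 24.7 to 28.3 at day 4 and from 18.7 to 19.3 at day 7. The part of such cells in the level of Angpt2 was not tested. Mroh6, whose role is not well known, had means of 8.77 ± 1.66, 8.83 ± 0.625 and 22.8 ± 7.15 RPKM at day 0, day 4 and day 7.

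The most abundant late genes were of other kinds. The 10 with the highest day 7 means were Hist1h4c, Rps7, Ndufa6, Hist1h1d, Romo1, Cpe, Ddit4, Ckb, Rps16 and Trib3. Ndufa6, an accessory subunit of complex I, and Romo1 encode proteins of the mitochondrial inner membrane. Ndufa6 was at 112, 116 and 108 RPKM in the day 0 libraries, at 92.9, 117 and 99.4 in those of day 4, and at 157, 161 and 156 in those of day 7. The levels of Romo1 were 81.5, 88.4 and 73.98 RPKM at day 0, 75.9, 67.5 and 73.6 at day 4, and then 115, 102 and 116 at day 7. In both all day 7 libraries were above all others. The list of respiratory chain genes, which leaves out Ndufa6, held no late gene among 38 with 2 RPKM at day 7 (0.952% of all such genes were late genes), and 11 of them rose and 3 fell between day 0 and day 7 (median 0.27), or 26 and 3 with median-of-ratios factors. Iscu, the scaffold on which iron-sulfur clusters are built, and Hscb, the co-chaperone that helps to pass them on, were both late genes. Iscu had means of 11.6 ± 1.46, 9.02 ± 0.989 and 14.5 ± 1.904 RPKM at day 0, day 4 and day 7, and Hscb had means of 8.47 ± 1.49, 8.17 ± 1.78 and 12.9 ± 0.935 RPKM at day 0, day 4 and day 7. Day 7 cleared day 0 and day 4 for Hscb, while Iscu overlapped day 0.

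Histone and ribosomal protein genes were looked at as families after their values were seen. Of the 48 clustered histone genes with 2 RPKM at day 7, 4 were late genes (Hist1h4c, Hist1h1d, Hist1h4m and Hist1h2ag), against 0.952% of all such genes, and 31 were below 0.67 times day 0 at day 4, 27 of which then stood at least 1.5 times above day 4 and missed the set by the depth of their dip. The levels of Hist1h4c were 215, 248 and 159.8 RPKM at day 0, 146, 133 and 154 at day 4, and then 248, 189 and 288 at day 7. Hist1h1d was at 127, 109 and 66.3 RPKM in the day 0 libraries, at 85.7, 59.6 and 74.4 in those of day 4, and at 116, 82.7 and 138 in those of day 7. Day 7 overlapped day 0 in both. For Hist1h1d, day 7 also overlapped day 4, and the gene stayed in the set in 5 of the 9 cases with 1 library left out. The separate, shorter list of replication-dependent histone genes held 0 late genes among 15 with 2 RPKM at day 7. That is too few genes to read anything from at a share of 0.952% of all such genes. Of its 16 genes tested, 0 rose and 0 fell between day 0 and day 7 (median log2 difference -0.10). The family's median ratio of day 7 to day 0 was 0.948. It also varied between libraries of a stage: its median level was 0.672, 0.457 and 0.678 of the day 0 mean in the day 4 libraries and 0.951, 0.705 and 1.19 in those of day 7, with day 0 replicate 3 at 0.728.

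**Figure D5:**
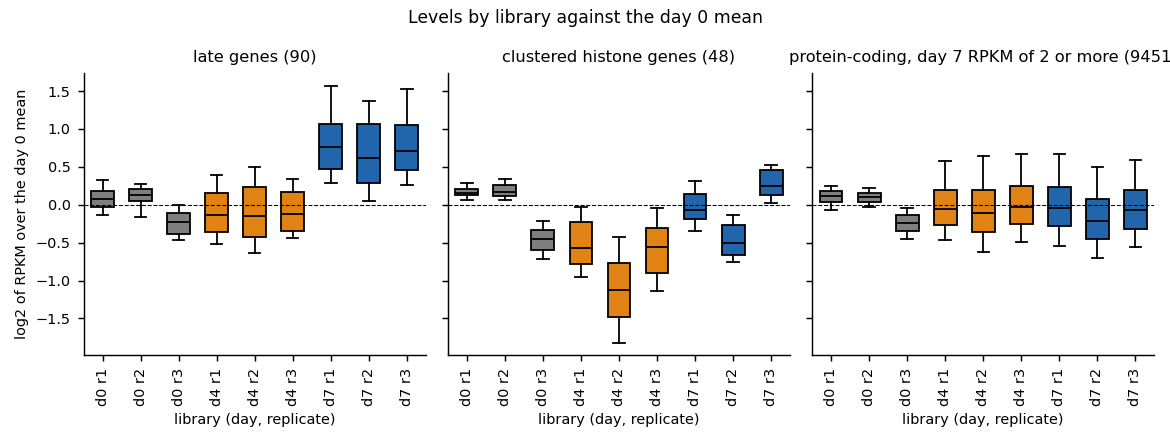
Log2 of RPKM over the day 0 mean in each library for the late genes, the clustered histone genes and protein-coding genes with at least 2 RPKM at day 7 (9451 with reads at day 0 and day 4). Boxes run from the lower to the upper quartile with the median, and whiskers reach the 10th and 90th percentile. The late genes are highest in the day 7 libraries, with medians of 1.69, 1.53 and 1.63 times the day 0 mean, while histone genes vary among libraries of a stage.

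Of 77 cytosolic ribosomal protein genes with 2 RPKM at day 7, 3 were late genes, against 0.952% of all such genes. Rps16 was at 29.9, 61.6 and 36.3 RPKM in the day 0 libraries, at 44.8, 49.5 and 47.8 in those of day 4, and at 81.5, 67.4 and 79.98 in those of day 7. The levels of Rps7 were 158, 171 and 123 RPKM at day 0, 93.4, 114 and 100.5 at day 4, and then 169.9, 178 and 200.2 at day 7. For Rps16 the day 7 libraries cleared day 0, whose replicates spread widely, and for Rps7 they overlapped. Rpl7a had means of 46.9 ± 6.9997, 35.03 ± 2.66 and 52.7 ± 0.605 RPKM at day 0, day 4 and day 7. The family as a whole had a median ratio of 1.165 from day 0 to day 4 and of 1.054 from day 4 to day 7, so the dip of Rps7 and Rpl7a was not its usual course.

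Such genes have close copies, and the authors counted only reads that aligned uniquely. In 10 late genes more than 25% of the 50-base words of the transcripts also occur in other genes, and their levels are uncertain: Hist1h4m (89.8%), Hist1h2ag (78.9%), Rnaset2a (78.9%), Mrps34 (71.8%), Nrbf2 (65.8%), Fam104a (46.4%), Rpl7a (37.9%), Rps16 (34.9%), Rps7 (27.7%) and H3f3a (27.1%). In 47 no such word occurs elsewhere. A gene on the other strand shares exonic bases with 25 late genes, over 25% of them for Mrps34 (63.4%, with Mapk8ip3), Fam104a (42.6%, with Cog1) and Hist1h2ag (28.5%, with Gm44486). For Dbp the share was 18.0%, with Sphk2. Whether counting used the strand is not given in the sources used here, so the reads of such pairs cannot be told apart.

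The late genes lie on 19 chromosomes. Of the 7 pairs within 500000 bp of each other, 2 were histone genes of chromosome 13, and Swap70 and Adm lie 344155 bases apart on chromosome 7 with 1 coding gene, Sbf2, between them.

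At the edges of the choice the values were close. Dapk2 and Hipk2 entered with day 7 means of 2.01 and 2.26 RPKM, and Nhsl1 and Immp2l stayed out with 1.97 each. Rab3a and Swap70 entered at 1.501 and 1.504 times day 4, and Preb and Nudt14 stayed out at 1.498 and 1.494. Rps7 and Lrp4 entered with day 4 at 0.682 and 0.683 times day 0, and Hist2h4 and Slc22a23 stayed out at 0.661 and 0.655. Fez1 and Nog entered with day 4 at 1.49 and 1.46 times day 0, and Mical3 and Tmem86a stayed out at 1.51 and 1.52. The stem Tmem was shared by 4 late genes, of which Tmem205 and Tmem238 were the highest at day 7. Tmem205 had means of 21.02 ± 3.45, 18.6 ± 0.496 and 29.4 ± 3.94 RPKM at day 0, day 4 and day 7, and Tmem238 had means of 7.52 ± 1.58, 7.03 ± 0.0309 and 11.2 ± 1.38 RPKM at day 0, day 4 and day 7.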

How the data were processed

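RNA-seq was performed on 9 libraries of calvarial cells, with 3 biological replicates at each of day 0, day 4 and day 7. Strain and age are those of the labels, and the study's methods name C57BL/6J and a wider range of neonatal ages. Per the study's methods and the processing notes, ribosomal RNA was depleted with Ribo-Zero Gold, STAR 2.0.4b aligned the reads to the mouse assembly of Ensembl release 76 (GRCm38), and uniquely aligned unambiguous reads were counted per gene with featureCounts. The authors deposited CPM values, scaled to the reads of the library, and RPKM values, scaled also to gene length, in a table for day 0 and day 7 and another for day 4. All 18 columns matched a library by title, and lines repeated for an identifier were identical and used once. CPM values stepped in units of 1 read, within 0.01 reads for 99.99% or more of the genes of each column, which gave the reads on genes.

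Genes were joined by Ensembl identifier, and means, SD and ratios were computed from RPKM. The members and the gene lists were chosen with earlier results of these data known. Day 7 was compared with day 0 by limma 3.58.1 in R 4.3.3 (trend option) on log2(CPM + 0.5). It took the 12710 genes whose CPM averaged 1 or more across both stages, with Benjamini-Hochberg adjustment of p-values. Differences on this scale are understated for low genes. The test was used for lists without the late genes and for single genes that are not late genes, and day 4 entered no test. Count models (edgeR 4.0.16 and DESeq2 1.42.0) on the recovered reads, other scalings, pseudocounts and filters, and leaving out each library were alternatives.

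Named late genes are the 10 highest at day 7, the 10 largest ratios of day 7 to day 4 among those with day 7 clear of all other libraries and at least 1.5 times day 0, up to 3 per list, the 2 highest per symbol stem shared by 3 or more, and the 2 nearest each threshold on either side. Others were chosen after their values were seen. Coordinates, exons and 50-base words come from GENCODE M21 and promoter windows from RefSeq, both on GRCm38.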

Additional observations from a re-analysis of the deposited data

How the results depend on the processing

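Ratios of CPM differ from those of RPKM only by gene length, which cancels, and the floor of 2 RPKM was kept. The set of 90 late genes was thus the same with them by construction. It held 130 genes with TMM factors (86 shared), 139 with median-of-ratios factors (88 shared), 92 with medians of the stages (75 shared), 20 with a 2-fold limit over day 4, 42 with a narrower window at day 4, and 55 with day 7 also at least 1.5 times day 0. With 1 library left out it held between 81 and 116 genes, the most without day 7 replicate 2, and 41 of the 90 stayed without each of the 9 libraries. The late genes at least 1.5 times above day 0 numbered 55, 85 with median-of-ratios factors, and between 46 and 67 with 1 library left out. Between day 0 and day 7, 3971 genes passed the test, 1602 higher and 2369 lower. Scaled by median-of-ratios factors, 5456 passed (2827 and 2629), and with TMM and quality weights 6119 passed (3147 and 2972). The count ranged from 2906 to 6297 with 1 library left out, the most without day 0 replicate 3 (1603 higher and 4694 lower). The replicate block gave 3413 genes (1463 and 1950). The correlations of same-numbered deviations between day 0 and day 7 over all genes tested were -0.0172, -0.181 and -0.444. They gave no sign of pairing over all genes, but a shift of a whole library also enters them. Col2a1 and some other cartilage genes were highest in replicate 1 at each stage. Whether same-numbered libraries share a source was not tested. Of the counts of fixed lists under these alternatives, 1092 stayed within 1.5 times and 108 did not, and of the motif shares 9 stayed within their interval and 3 did not. The cause of these shifts was not tested. Day 0 and day 7 were sequenced to less depth than day 4, so their levels of low genes are less precise.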
